A study of Mus musculus with 10 samples.

Results

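The homeostatic microglia genes described here are *P2ry12*, *Tmem119*, *Cx3cr1*, *Sall1*, *Csf1r*, *Aif1*, *Siglech*, *Trem2* and *Tyrobp*, 9 of the 53974 genes in the RNA-seq table. They were chosen by name, as genes that resting microglia are known to express, and all 9 were found in the table. Of the 16600 regions compared by ATAC-seq, which measures open chromatin, 0 lay within 1000 bp of an end of any of the 9 genes. The samples were retinal cells of C57BL/6 mice aged 8 to 10 weeks that carried floxed *Arid1a*, a subunit of the SWI/SNF chromatin remodeler. The WT group (Arid1a fl/fl) received AAV2-GFP and the cKO group (labelled Arid1a del/del) received AAV2-Cre, both from the CMV promoter, which is not specific to one cell type, by injection into the eye. The authors give a higher titer for AAV2-GFP than for AAV2-Cre, and the part of the titer in the results was not tested. The optic nerve was crushed 2 weeks after injection in both groups, and live Thy1.2-stained cells were sorted 3 days after the crush, with 4 to 5 retinas pooled per sample. There were 3 libraries per group for RNA-seq and 2 per group for ATAC-seq.

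Microglia are the resident macrophages of the retina and brain. They depend on the receptor CSF1R, whose ligands are CSF1 and IL-34, and they keep their resting identity under TGF-beta and the transcription factor SALL1. P2RY12 senses nucleotides released by damaged cells, CX3CR1 binds the neuronal ligand CX3CL1, and TREM2 signals through the adaptor TYROBP. After injury microglia are known to lower several of these genes and to raise phagocytic and lysosomal genes. *P2ry12*, *Tmem119*, *Sall1* and *Siglech* are largely restricted to microglia among the macrophages of neural tissue, although *Siglech* is also a marker of plasmacytoid dendritic cells and *Sall1* is made by some neural cells. *Cx3cr1*, *Csf1r*, *Aif1*, *Trem2* and *Tyrobp* are shared with other myeloid cells. Microglia are not known to carry Thy1, the antigen of the sort, while T cells do.

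The promoters of 3 of the genes are shown because the results below turn on them: *Aif1* differed most between the groups, *P2ry12* differed little, and *Trem2* alone had a peak just inside its start. RefSeq's table on GRCm38.p6 held a promoter for 6 of the 9 genes. The sequences are the bases before the gene, 5′ to 3′ on the gene's own strand, at chr17:35176084-35176302 (minus strand) for *Aif1*, chr3:59262986-59263235 (minus strand) for *P2ry12* and chr17:48346151-48346400 (plus strand) for *Trem2*. Capitals mark AGGAAG, the core that ETS factors such as PU.1 bind, on either strand, and in *Aif1* the core that interferon regulatory factors bind, GAAA and GAAA with any 2 bases between them.
Aif1: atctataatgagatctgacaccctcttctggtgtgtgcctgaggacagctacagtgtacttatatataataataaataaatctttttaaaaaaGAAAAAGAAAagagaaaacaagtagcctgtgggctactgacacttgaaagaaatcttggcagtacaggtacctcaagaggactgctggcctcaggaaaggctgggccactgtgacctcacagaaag
P2ry12: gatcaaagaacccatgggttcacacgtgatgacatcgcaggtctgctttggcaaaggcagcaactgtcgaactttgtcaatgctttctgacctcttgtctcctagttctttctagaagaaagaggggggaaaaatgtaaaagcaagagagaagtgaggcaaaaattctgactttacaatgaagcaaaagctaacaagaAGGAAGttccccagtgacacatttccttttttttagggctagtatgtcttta
Trem2: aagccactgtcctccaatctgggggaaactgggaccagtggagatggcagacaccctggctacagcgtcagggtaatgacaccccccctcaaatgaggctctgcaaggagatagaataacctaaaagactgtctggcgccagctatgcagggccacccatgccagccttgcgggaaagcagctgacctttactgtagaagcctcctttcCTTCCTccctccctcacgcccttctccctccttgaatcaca
Motifs were searched in all 250 bases before the listed start, of which the printed *Aif1* stretch leaves out those inside the gene's RefSeq span. The ETS core was found in 2 of the 6 genes, *P2ry12* and *Trem2*, and in 29.2% of 27025 promoters of that length. The interferon regulatory core was found in *Aif1*, and in 3.04% of all promoters. The longer PU.1 core GAGGAAGT, which contains the ETS core, and the MEF2 core TAAAAATA were found in 0 of the 6, and in 2.44% and 2.48% of all promoters. These are matches of letters on both strands, and nothing was measured at them.

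Expression was measured in TPM, a transcript abundance that adds up to nearly the same total in each library and corrects for gene length, so that levels can be compared between genes. TPM keeps no sequencing depth, so no counting error can be given for a value. Genes with at least 1 TPM in at least 3 of the 6 libraries were tested, which kept 17555 genes and all 9 microglia genes. The targeted gene, *Arid1a*, was at 18.8, 11.7 and 14.1 TPM in WT replicates 1, 2 and 3 and at 18.8, 27.9 and 25.0 TPM in the cKO replicates. Its RNA was thus not lower under the cKO label, and WT and cKO below name the labels of the libraries. The paper reports that the protein fell significantly in stained ganglion cells of retinal sections after injection of the Cre virus. That is a measure of protein, made in sections and not in the sorted cells. Each TPM is a single value for the whole gene, so it does not show whether the floxed part was lost. Why the RNA was not lower was not tested. Of the markers of retinal ganglion cells (RGCs), the labelled cell type, *Pou4f2* was listed at 0 in 5 of 6 libraries. *Slc17a6* lay between 0.593 and 1.57 TPM, *Rbpms* between 1.82 and 6.43 TPM and *Pou4f1* between 0.0838 and 3.60 TPM. *Sncg* and *Nefm* had means of 2.84 and 4.11 TPM over the 6 libraries. The less specific *Thy1*, *Isl1*, *Nefl* and *Tubb3* had means of 88.7, 77.0, 15.6 and 7.33 TPM over the 6 libraries. *Thy1*, the antigen of the sort, and *Tubb3* were higher in each cKO library than in each WT library, as were 18.7% of all genes tested. *Rbpms*, *Pou4f1* and *Sncg* had log2 differences, cKO minus WT on log2(TPM + 1), of -0.41, -0.64 and -0.83, with groups that overlapped. Of the 8 RGC markers tested, 5 had a log2 difference above 0 and 3 below 0, beside 10733 above and 6822 below of all 17555 genes tested. The 10 RGC markers summed to between 142 and 250 TPM and the 8 rod markers to between 12325 and 48239 TPM. The paper, by contrast, reports that nearly all of its sorted cells stained for Tuj1, a measure of protein and not of RNA. Libraries WT replicate 2 and cKO replicate 3 stood apart, with a median of 32.4 and 37.9 TPM over 77 ribosomal protein genes against 47.7 to 97.6 TPM in the others, and with 2.47% and 2.58% of the TPM in mitochondrial genes against 3.30% to 4.66%.

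The microglia genes were expressed in both groups over a range of levels. *Csf1r* had the highest mean level over the 6 libraries, 103 TPM, at percentile 89.9 of the genes tested. *Cx3cr1* at 66.2 TPM and *Tmem119* at 65.0 TPM came next, followed by *Aif1* at 37.0, *P2ry12* at 35.3 and *Siglech* at 24.1 TPM. *Tyrobp* was at 11.4 TPM, *Trem2* at 7.05 TPM and *Sall1* at 1.39 TPM, percentile 5.41. Every gene overlapped the next in this order across the 6 libraries, except *Trem2*, whose lowest library (2.74 TPM) lay above the highest of *Sall1* (2.10 TPM). In 6 of the 9 genes the highest library was WT replicate 3.

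**Figure D1:**
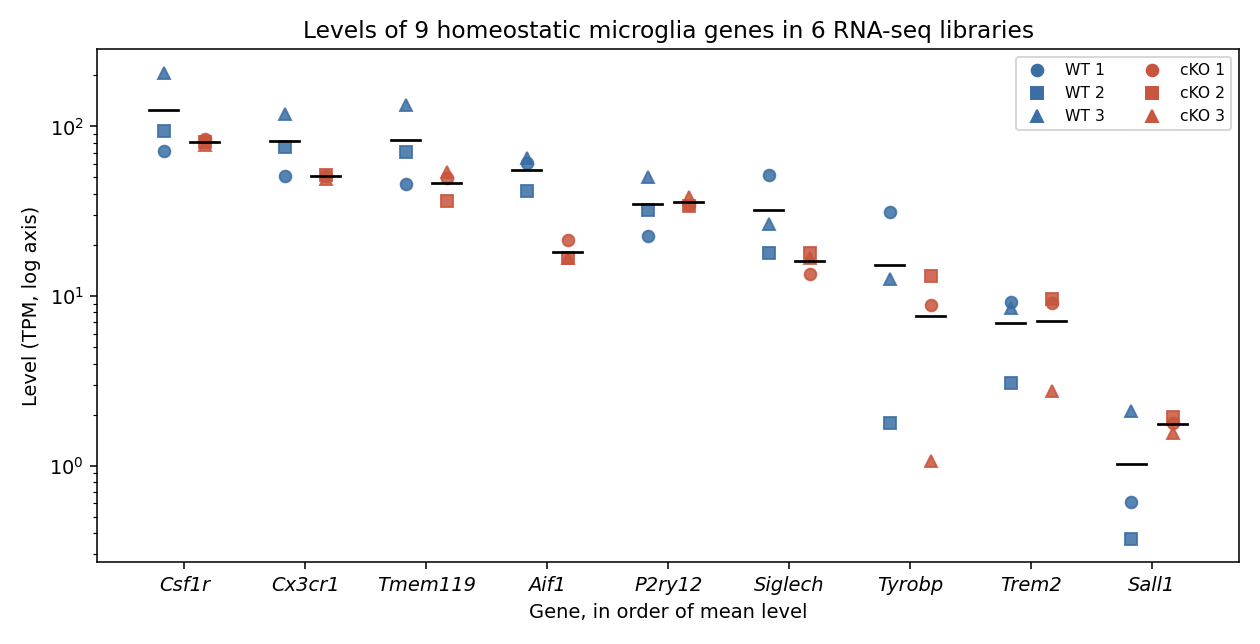
Level of each microglia gene (TPM, log axis) in the 3 WT libraries (blue) and the 3 cKO libraries (red), with replicates 1, 2 and 3 as circles, squares and triangles and black bars at the group means. The groups do not overlap for *Aif1*, and the WT libraries spread more widely than the cKO libraries for *Csf1r*, *Cx3cr1* and *Tmem119*.

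Between the groups, the difference that stood clear of the replicate spread was that of *Aif1*, which encodes IBA1, the calcium- and actin-binding protein used to stain microglia and macrophages. *Aif1* (chr17:35170986-35176083) was at 60.6, 41.7 and 64.8 TPM in WT and at 21.3, 16.7 and 16.8 TPM in cKO. All 3 cKO libraries lay below all 3 WT libraries. The means were 55.7 ± 12.3 TPM (SD, n = 3) in WT and 18.3 ± 2.65 TPM (SD, n = 3) in cKO, a ratio of 3.05. The log2 difference, cKO minus WT on log2(TPM + 1), was -1.54 (SE 0.26) with an adjusted p of 0.124 from limma, so it did not pass the threshold of 0.05 over all genes tested. The exact two-sided permutation test gave p = 0.1, the smallest that 3 libraries against 3 allow. The difference lay between -1.73 and -1.42 under the 13 other settings tried, with adjusted p-values from 0.0657 to 0.469.

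Over all 9 genes, 0 passed the adjusted threshold in limma, where 1 of the 17555 genes tested did (0.0057%). At an unadjusted p under 0.05, 1 of the 9 was lower in cKO, *Aif1*, and 0 were higher, against 6.45% lower and 11.9% higher of all genes tested. Likewise 1 of the 9 had all cKO libraries below all WT libraries and 0 had all above, against 7.18% and 18.7% of all genes. In 6 of the 9 genes the difference was below 0 and in 3 above 0, beside 6822 below and 10733 above of all 17555 genes tested. Their median log2 difference was -0.60, beside 0.16 over all genes tested. Without WT replicate 3 the median was -0.29. With libraries scaled by median of ratios, the median of all genes was 0.01 and that of the 9 genes -0.76, and the scaling raised the number of genes with all cKO libraries below all WT libraries from 1 to 5, beside 11.2% of all genes under that scaling, with *Csf1r*, *Cx3cr1*, *Siglech* and *Tmem119* joining *Aif1*.

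**Figure D2:**
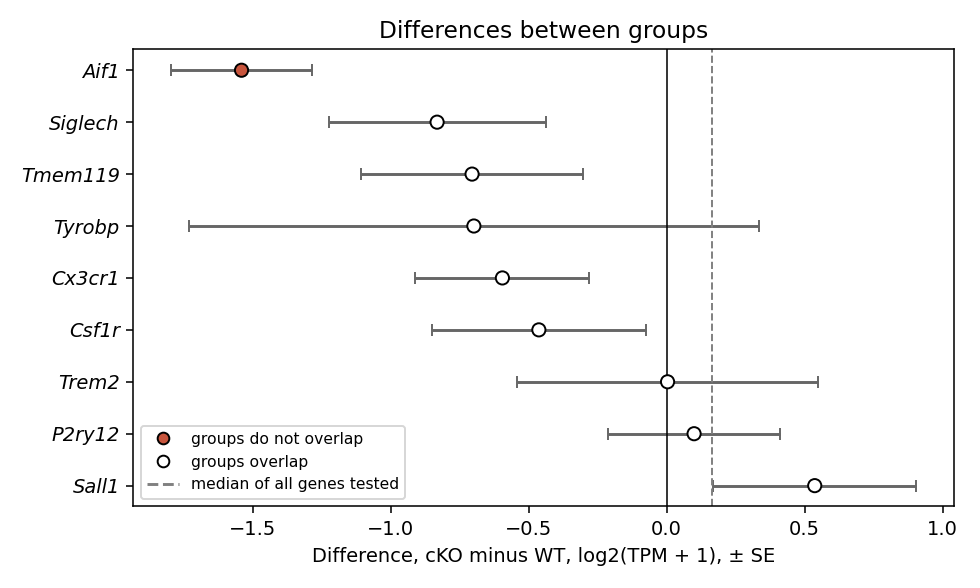
Log2 difference in expression, cKO minus WT on log2(TPM + 1), of each microglia gene with its standard error from limma (n = 3 libraries a group), where the filled point marks groups that do not overlap. *Aif1* is at -1.54, the other 8 genes lie between -0.83 and 0.54, and the dashed line at 0.16 is the median of all genes tested.

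The receptors and surface proteins that mark microglia did not move alike. *P2ry12* (chr3:59216271-59262985, within the span of *Med12l*) was at 22.7, 32.0 and 50.1 TPM in WT and at 34.6, 34.1 and 38.3 TPM in cKO. Its cKO libraries fell inside the WT range, and the log2 difference was 0.10 (SE 0.31, adjusted p = 0.891 from limma). The sign of *P2ry12* was not stable, since it was -0.066 after median-of-ratios scaling. *Tmem119* (chr5:113793729-113800396), a microglial surface protein of unknown function, was at 45.6, 70.6 and 134 TPM in WT and at 49.4, 36.5 and 54.0 TPM in cKO. The groups overlapped through WT replicate 1, and the log2 difference was -0.71 (SE 0.40, adjusted p = 0.389 from limma). *Siglech* (chr7:55768154-55779448), a receptor of the Siglec family that signals through TYROBP, was at 51.6, 17.9 and 26.7 TPM in WT and at 13.5, 18.0 and 16.7 TPM in cKO. WT replicate 2 and cKO replicate 2 were nearly equal, and the log2 difference was -0.83 (SE 0.39, adjusted p = 0.308 from limma).

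*Sall1* (chr8:89027242-89044162), the transcription factor of microglial identity, was at 0.611, 0.369 and 2.10 TPM in WT and at 1.79, 1.93 and 1.55 TPM in cKO. It reached 1 TPM in 4 of 6 libraries, and the cKO libraries lay between WT replicates 1 and 3. The log2 difference was 0.54 (SE 0.37, adjusted p = 0.475 from limma), and at this level the added 1 TPM shrinks any difference. *Sall1* was left untested when a mean of at least 5 TPM was required.

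The 2 receptors for ligands made by other retinal cells were lower on average in cKO, with groups that overlapped. *Cx3cr1* (chr9:120048683-120068296) was at 51.4, 75.6 and 118 TPM in WT and at 51.1, 51.9 and 49.3 TPM in cKO. Of its cKO libraries only replicate 2 lay above the lowest WT library, and the log2 difference was -0.60 (SE 0.32, adjusted p = 0.355 from limma). *Csf1r* was at 71.4, 94.3 and 207 TPM in WT and at 84.9, 80.6 and 77.2 TPM in cKO. The cKO libraries lay inside the WT range, and the log2 difference of -0.46 (SE 0.39, adjusted p = 0.559 from limma) was -0.02 without WT replicate 3. Across the 6 libraries *Cx3cr1*, *Csf1r* and *Tmem119* varied together, with Pearson's r of 0.951 for *Cx3cr1* and *Csf1r*, 0.945 for *Tmem119* and *Cx3cr1* and 0.925 for *Tmem119* and *Csf1r*. These values describe 6 libraries that share WT replicate 3 as the highest for all 3 genes.

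*Trem2* and *Tyrobp*, the lipid-sensing receptor and its adaptor, varied more between replicates than between groups. *Trem2* (chr17:48346401-48352276) was at 9.26, 3.07 and 8.54 TPM in WT and at 9.11, 9.61 and 2.74 TPM in cKO. *Tyrobp* (chr7:30413782-30417582) was at 31.2, 1.79 and 12.6 TPM in WT and at 8.82, 13.1 and 1.07 TPM in cKO. Both genes were lowest in WT replicate 2 and cKO replicate 3, the 2 libraries with the lowest ribosomal protein gene levels. The cause of the low values in these 2 libraries was not tested. The log2 difference was 0.0031 (SE 0.55, adjusted p = 0.999 from limma) for *Trem2* and -0.70 (SE 1.03, adjusted p = 0.748 from limma) for *Tyrobp*. Without those 2 libraries, a comparison chosen after seeing the data, it was 0.07 for *Trem2*, -0.83 for *Tyrobp* and -1.68 for *Aif1*. Pearson's r between *Trem2* and *Tyrobp* was 0.930 over the 6 libraries.

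Summed over the 9 genes, the libraries held 344, 337 and 624 TPM in WT and 275, 262 and 258 TPM in cKO. The groups did not overlap, and the WT mean was 1.64-fold that of cKO, or 1.29-fold without WT replicate 3. The 4 microglia-restricted genes summed to 121, 121 and 213 TPM in WT and 99.3, 90.5 and 111 TPM in cKO, a ratio of 1.51. Of these 4 genes, 2 had a log2 difference below 0 and 2 above 0. *Siglech*, also a marker of plasmacytoid dendritic cells, gave 51.6 TPM of the sum in WT replicate 1, and its part in the ratio was not tested. In that library *P2ry12* and *Sall1* lay below all 3 cKO libraries, and *Tmem119* lay inside the cKO range. The sum of the 4 genes in WT replicate 1 thus lay above the cKO sums only through *Siglech*. The 5 genes shared with other myeloid cells summed to 224, 216 and 411 TPM in WT and 175, 172 and 147 TPM in cKO, a ratio of 1.72. In such bulk samples fewer cells of a type and less RNA per cell cannot be told apart. In RefSeq the spans of *Siglech*, *Cx3cr1*, *Sall1* and *Csf1r* overlap predicted or microRNA genes, *Hcst* lies beside *Tyrobp*, and *Csf1r* has a pseudogene, and how far shared reads moved their values was not measured.

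Of the 5 lists of other immune cell genes, 4 gave a larger ratio between the group means than the 1.64 of the 9 microglia genes, while the neutrophil and dendritic cell list gave 1.27 with groups that overlapped. Most of that list's sum was *Tcf4* alone, with a mean of 429 TPM in WT and 404 TPM in cKO. Of the 10 genes tested in that list, 8 had a log2 difference below 0 and 2 above 0. The 8 pan-leukocyte genes, such as *Ptprc* (CD45), which microglia also express, summed to between 942 and 2790 TPM in WT and between 436 and 761 TPM in cKO, 3.37-fold higher in WT. The 12 T and NK cell markers summed to between 705 and 2079 TPM in WT and between 183 and 449 TPM in cKO, 4.26-fold higher in WT. The 12 monocyte and border macrophage markers summed to between 1526 and 2584 TPM in WT and between 443 and 743 TPM in cKO, 3.67-fold higher in WT. Most of these sums came from *Lyz2*, with means of 1237 TPM in WT and 358 TPM in cKO, and *Ly6c2*, with 498 and 81.8 TPM. The ratio of the B cell markers was 5.26. Of the border macrophage markers, *Cd163* was at 0.0482 TPM at most, *Lyve1* had a mean of 11.2 TPM in WT and 16.2 TPM in cKO, *F13a1* of 2.25 and 1.96 TPM, and *Ms4a7* of 47.8 and 10.1 TPM. *Mrc1* had a mean of 1.71 TPM in WT and 0.617 TPM in cKO, and *Pf4* of 1.19 and 0.749 TPM. The part of these cells in the levels of *Aif1* and the other shared genes was not tested. As a share of the pan-leukocyte sum, the 9 genes were at 12.3%, 35.8% and 25.6% in WT and at 36.1%, 60.1% and 40.9% in cKO. The 4 restricted genes were at 4.32%, 12.8% and 8.74% in WT and at 13.04%, 20.7% and 17.5% in cKO. For both, each cKO library lay above each WT library, by a narrow margin over WT replicate 2. This ratio was chosen after the levels were seen, and it does not depend on how a library is scaled.

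**Figure D3:**
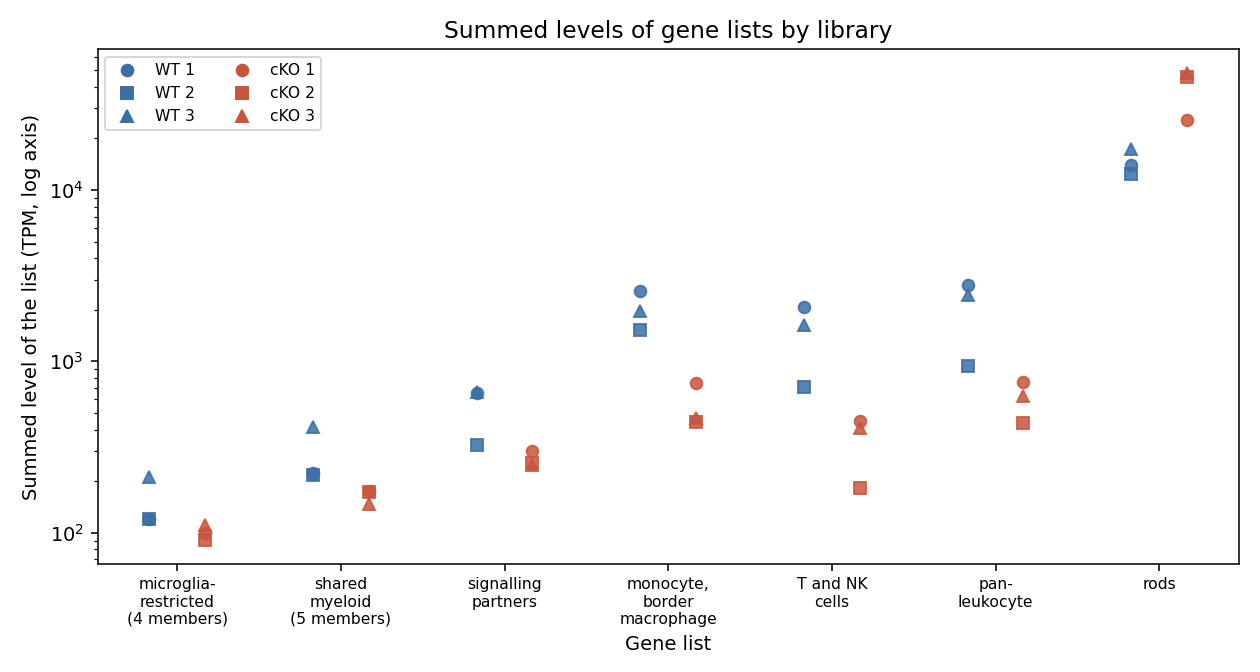
Summed level of each gene list (TPM, log axis) in the 3 WT libraries (blue) and the 3 cKO libraries (red), with replicates 1, 2 and 3 as circles, squares and triangles. The 4 microglia-restricted and 5 shared genes differ by 1.51 and 1.72 times between the group means, the T and NK cell markers by 4.26 times, and the rod markers are higher in all 3 cKO libraries.

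Other genes of resting microglia gave a mixed picture. Of 21 further homeostatic genes, all tested, 0 passed the adjusted threshold, 3 were lower in cKO at an unadjusted p under 0.05 and 0 were higher, with a median log2 difference of -0.17. For these and the lists below, the shares of all genes tested at that p were 6.45% lower and 11.9% higher. The 3 lower homeostatic genes were *Selplg* (-1.63, adjusted p = 0.124 from limma), a selectin ligand that other leukocytes also carry, *Lag3* (-1.03, adjusted p = 0.251), a checkpoint receptor known from T cells, and *Entpd1* (-1.01, adjusted p = 0.248), the ectonucleotidase CD39. *Selplg* was at 208, 127 and 210 TPM in WT and at 68.6, 41.9 and 63.2 TPM in cKO, with no overlap. Of 12 transcription factors of myeloid cells and microglia, 11 were tested, of which 1 was lower in cKO and 1 higher, both by the unadjusted p. *Irf8*, which macrophages and dendritic cells need, was at 123, 79.3 and 130 TPM in WT and at 36.8, 20.7 and 42.6 TPM in cKO (log2 difference -1.73, adjusted p = 0.124 from limma). *Bhlhe41* was at 51.0, 54.0 and 62.0 TPM in WT and at 95.1, 94.8 and 98.2 TPM in cKO (log2 difference 0.78, adjusted p = 0.131 from limma).

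The ligands of the microglial receptors went both ways. *Cx3cl1*, the ligand of CX3CR1, was at 55.4, 77.7 and 51.7 TPM in WT and at 166, 110 and 89.0 TPM in cKO (log2 difference 0.95, SE 0.30, adjusted p = 0.177 from limma). All cKO libraries lay above all WT libraries, while its receptor was lower on average. *Tgfb1*, which maintains microglial identity, was at 4.40, 3.04 and 1.41 TPM in WT and at 0.970, 0.715 and 0.459 TPM in cKO (log2 difference -1.14, adjusted p = 0.184 from limma). *Csf1* was at 13.3, 50.7 and 24.2 TPM in WT and at 8.79, 10.6 and 26.5 TPM in cKO, and *Il34* was at 2.56, 3.17 and 6.70 TPM in WT and at 5.96, 3.34 and 1.01 TPM in cKO. Both overlapped, with log2 differences of -0.86 and -0.30. By the unadjusted p, 2 of the 8 genes in this list were lower in cKO and 2 were higher, and the median was -0.46. The other two were *Apoe*, a TREM2 ligand (-0.96, adjusted p = 0.227 from limma), and *Gas6*, a ligand of the TAM receptors rather than of any of the 9 genes' products (1.27, adjusted p = 0.124).

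Signalling partners of TYROBP and CSF1R had mostly lower values in cKO, and none passed the adjusted threshold. Of 17 genes, 15 were tested, 7 were lower at an unadjusted p under 0.05 and 0 were higher, and 8 had all cKO libraries below all WT libraries, with a median log2 difference of -1.08. Of all genes tested, 6.45% were lower at that p and 7.18% had all cKO libraries below all WT libraries. The largest differences among the partners were those of *Sirpb1a*, a TYROBP-coupled receptor (-1.78, adjusted p = 0.124 from limma), *Itgb2*, the integrin beta-2 chain (-1.51, adjusted p = 0.184), *Inpp5d*, the phosphatase SHIP1 (-1.49, adjusted p = 0.163), and *Ptpn6*, the phosphatase SHP1 (-1.42, adjusted p = 0.173). Most of these are expressed by leukocytes at large, whose markers moved with them as given above. Of 13 reactive microglia and macrophage markers, 5 were lower in cKO by the unadjusted p and 2 were higher, with a median of -0.73. *Cst7* (-1.58, adjusted p = 0.182 from limma) and *Itgax* (-1.19, adjusted p = 0.150) were lower, and *Igf1* (1.48, adjusted p = 0.124) and *Lpl* (1.16, adjusted p = 0.234) were higher.

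Among 10336 genes with a mean of at least 10 TPM, those whose pattern over the 6 libraries was most like the mean of the 9 included *Serpina3n* (Pearson's r 0.969), *Net1* (0.952), *Hba-a2* (0.951) and *Gatm* (0.931). Each of these was highest in WT replicate 3, as was the mean of the 9 genes. *Hba-a2*, an alpha-globin chain of red blood cells, was at 93.9, 43.4 and 660 TPM in WT and at 79.5, 63.4 and 74.1 TPM in cKO.

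The ATAC-seq peak lists differed over the whole genome, between libraries of the same group as well as between the groups. The WT lists held 76522 and 42265 peaks and the cKO lists 55902 and 68317. The second WT list shared 24.4% of its peaks with the first (1 bp or more in common), while the first cKO list shared 3.39% of its peaks with the second. With the first WT list the first cKO list shared 3.48% of its peaks. The second cKO list shared 3.27% with the first WT list and 2.77% with the first cKO list. The cKO lists thus shared no more peaks with each other than with the first WT list. Among the 15512 genes tested by RNA-seq that have a position in RefSeq, a peak lay within 1000 bp of a gene end for 65.1% and 58.2% in WT replicates 1 and 2, and for 13.6% and 13.9% in cKO replicates 1 and 2.

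Few peaks were called close to the ends of the microglia genes. A peak lay within 1000 bp of an end of 1 of the 9 genes in WT replicate 1, 1 in WT replicate 2, 2 in cKO replicate 1 and 0 in cKO replicate 2. Both WT counts lay far under the share of all genes. Low WT shares were not particular to the 9 genes. They were 0% and 10.0% for the monocyte and border macrophage markers and 0% and 25.0% for the rod markers, while several other lists had more. In cKO replicate 1 the share was 22.2%, beside 13.6% of all genes, and rested on 2 genes. With the whole peak required inside the window it rested on 1 gene. No gene had such a peak in both libraries of a group. Within 3000 bp, 4 and 3 of the 9 genes had a peak in WT replicates 1 and 2, beside 74.9% and 66.9% of all genes, and 6 and 5 had one in cKO replicates 1 and 2, beside 30.7% and 32.3%. In that window the 9 genes thus held a smaller share than all genes in WT and a larger share in cKO. The 2 cKO lists shared few peaks with each other, as given above. *Trem2* had 2 in WT replicate 1, at chr17:48346782-48347032, 381 bp inside its start, and at chr17:48353021-48353267, 745 bp beyond its far end. The peak at *Siglech* in WT replicate 2 (chr7:55780088-55780413) lay 640 bp beyond its far end, and the peak at *Sall1* in cKO replicate 1 (chr8:89026209-89026434) lay 808 bp beyond its far end. The peak at *Csf1r* in cKO replicate 1 lay inside the gene, 541 bp from its higher-coordinate end. Over the spans of the 9 genes the 4 lists held 23 peaks, and 0 of them overlapped a peak of another library. No peak lay at the promoters of *Aif1* and *P2ry12* printed above. Whether a peak fell in an exon or an intron was not resolved, since the gene table gives spans only.

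**Figure D4:**
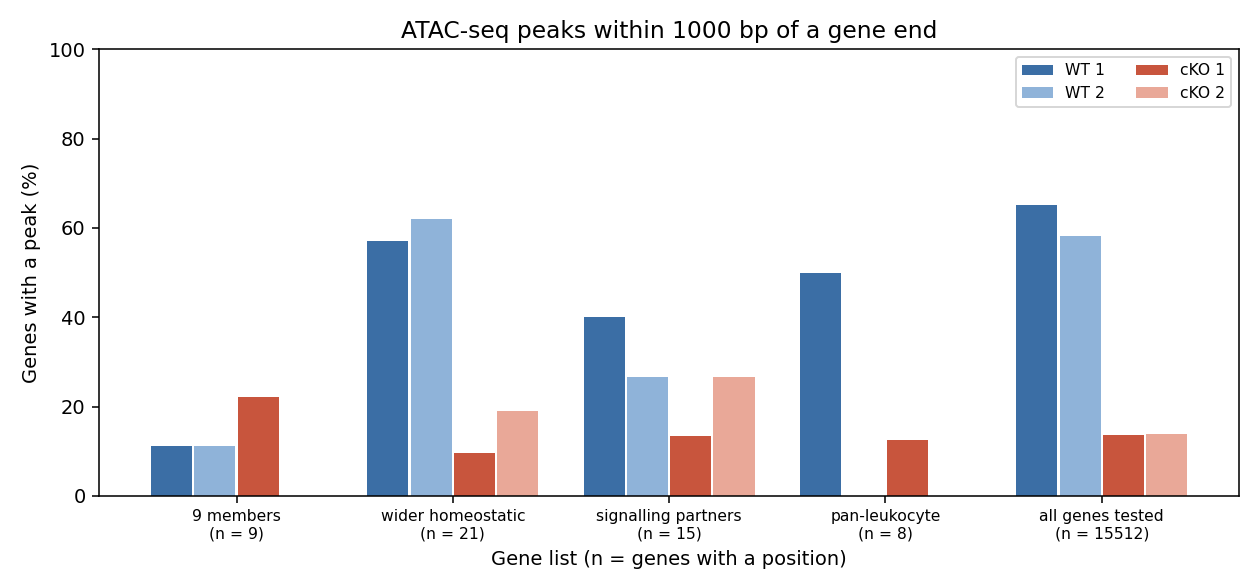
Percent of genes with an ATAC-seq peak within 1000 bp of a gene end, for the 9 microglia genes, 3 other gene lists and all genes tested, in WT replicates 1 and 2 (blue) and cKO replicates 1 and 2 (red). In WT the 9 genes stand at 11.1% in both libraries, beside 57.1% and 61.9% of the 21 further homeostatic genes and 65.1% and 58.2% of all genes.

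A compared region lay within 1000 bp of an end of 51.5% of the 15512 genes and of 0 of the 9 microglia genes. Nor did one lie there for the 10 monocyte and border macrophage markers, 8 pan-leukocyte genes or 5 B cell markers with a position. The 8 rod markers and the 5 endothelial cell and pericyte markers with a position also had none. In the other lists 10.0% to 52.4% of the genes had one. No region at the 9 genes could thus be counted as at least 2-fold lower in cKO, as 59.8% of all 16600 regions were. Among the 21 further homeostatic genes 11 had such a region, and all 11 regions were at least 2-fold lower in cKO, as were 93.1% of the regions at all genes tested, with a median log2 difference of -2.96 in the authors' group values, beside -2.58 over the regions at all genes. Several of those 11 genes, such as *Jun* and *Ctsd*, are expressed by most cells. At *Tgfbr1*, the TGF-beta receptor, the region chr4:47352835-47353562 had group values of 6.23 in WT and 2.87 in cKO (log2 of mean normalized reads). The group values carry no replicate error.

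The regions nearest to the 9 genes lay from 3416 bp (*Cx3cr1*) to 53637 bp (*P2ry12*) away. For 6 of the 9 the nearest region lay at the end of another gene, such as *Prrc2a* for *Aif1* (chr17:35164535-35165535, 5451 bp away, 6.54 in WT and 2.71 in cKO), *Tubgcp5* for *Siglech* (14207 bp away) and *Nfkbid* for *Tyrobp* (4095 bp away). The regions nearest to *Cx3cr1* (chr9:120044682-120045267, 2.22 in WT and 3.05 in cKO) and *Sall1* (chr8:89022720-89023246, 1.47 in WT and 3.14 in cKO) lay at no gene end, and in both the cKO value was the higher. The region nearest to *Csf1r*, 15824 bp away, also lay at no gene end, with 3.73 in WT and 3.15 in cKO.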

How the data were processed

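RNA-seq covered 6 libraries (3 WT, 3 cKO) and ATAC-seq 4 (2 WT, 2 cKO), grouped by title and genotype in the labels. For RNA-seq, the authors trimmed reads with Trimmomatic, quantified them with Salmon 1.0.0 against GENCODE transcripts, summed them to genes with tximport, and the deposited values are TPM, not scaled further. For ATAC-seq, the authors aligned with Bowtie2 2.3.5.1, the labels list MACS2 2.2.5, and the deposited comparison made with DiffBind holds 1 log2 value (mean normalized reads) for each group and region, on GRCm38. The deposited peak lists give positions alone. The fold changes, p-values and FDR columns of the authors' own RNA-seq and ATAC-seq comparisons were not used.

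Genes with at least 1 TPM in at least 3 libraries were kept, and log2(TPM + 1) was fitted in R 4.3.3 by limma 3.58.1 (empirical Bayes with trend, Benjamini-Hochberg over all genes tested, threshold 0.05). Single genes were also compared by exact two-sided permutation tests (scipy 1.17.1). Depth is unknown for all libraries. Peaks and regions were assigned to genes when they came within 1000 bp of either end in RefSeq's gene table on GRCm38.p6, which gives no strand. Printed positions count from 1. The fit and the peak assignment were tested on simulated data. Same-numbered RNA-seq libraries deviated together (r = 0.334, 0.101 and 0.425 across genes for numbers 1, 2 and 3), a hint from the data that the numbers pair them. However, cKO replicate 2 correlated better with WT replicate 1 (0.193).

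The 9 genes and the gene lists were chosen with earlier results of these data known. Of a list, at most 4 genes past an unadjusted p of 0.05 with the largest differences are named, besides *Cx3cl1*, *Csf1*, *Il34* and *Tgfb1*. *Ptprc*, *Tcf4*, *Cd163*, *Lyve1*, *F13a1*, *Mrc1*, *Pf4*, *Jun*, *Ctsd*, *Tgfbr1*, *Pou4f2*, *Slc17a6*, *Thy1*, *Isl1*, *Nefl*, *Tubb3*, *Nefm*, *Rbpms*, *Sncg* and *Pou4f1* were named after their values were seen. Some genes that the rules would name are not reported here. Alternatives were a pseudocount of 0.1, no filter, a mean of at least 5 TPM, median-of-ratios scaling, a replicate block, no trend, each library left out, a 3000 bp window, a 4-fold threshold and whole peaks in the window. Leaving out WT replicate 2 and cKO replicate 3 together, and the alternatives of the summed level, were added after seeing the data. The results of the lists not given above stand at the end.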

Additional observations from a re-analysis of the deposited data

How the results depend on the processing

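None of the 9 genes passed the adjusted threshold under any of the 13 other settings of the RNA-seq fit. With the replicate block the count was 0, 1 gene had all cKO libraries below all WT libraries, and the median log2 difference was -0.60, so pairing changed no call. The number of genes with all cKO libraries below all WT libraries was 1 as reported, 5 after median-of-ratios scaling, 2 without both libraries low in ribosomal protein genes, and between 1 and 4 when 1 library was left out (4 without WT replicate 1, 3 without cKO replicate 2 and 2 without WT replicate 2, each of which leaves fewer libraries to keep apart). The median log2 difference lay between -0.61 and -0.29 with 1 library left out.

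The sign of 3 genes turned. *P2ry12* was -0.066 after median-of-ratios scaling, -0.16 without WT replicate 1 and up to 0.39 with another library left out. *Tyrobp* was 0.09 without WT replicate 1, 0.14 without cKO replicate 3 and down to -1.67 without WT replicate 2. *Trem2* was -0.0048 with a pseudocount of 0.1, -0.15 after median-of-ratios scaling, -0.42 without WT replicate 2, -0.22 without cKO replicate 1, -0.26 without cKO replicate 2 and 0.49 without cKO replicate 3. The cause was not tested. *Aif1*, *Cx3cr1*, *Csf1r*, *Tmem119* and *Siglech* stayed below 0 and *Sall1* above 0 wherever they were tested.

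Within 3000 bp of a gene end, 4, 3, 6 and 5 of the 9 genes had a peak in WT replicates 1 and 2 and cKO replicates 1 and 2. The shares of all genes were 74.9%, 66.9%, 30.7% and 32.3% in the same order. With the whole peak required inside 1000 bp, cKO replicate 1 had 1. The compared region nearest to any of the 9 genes lay 3416 bp away, so neither window held a region. The count of regions at least 2-fold or 4-fold lower was therefore 0 in advance. No paired analysis was possible because, for ATAC-seq, each region has a single value per group. Unknown depth limits the low genes, *Sall1*, *Trem2* and *Tyrobp*.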

Other observations

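Markers of the other cell types in the sorted samples, counted beside the 9 microglia genes, differed in direction between lists. All 8 rod markers were higher in all 3 cKO libraries, with a median log2 difference of 1.48 and summed levels of 12325 to 17262 TPM in WT and 25705 to 48239 TPM in cKO. Of 12 T and NK cell markers, 10 were lower at an unadjusted p under 0.05 from limma, with a median of -1.99, and of 5 B cell markers tested 3 were lower, with a median of -2.01. Of 10 monocyte and border macrophage markers tested 5 were lower (median -0.96), of 10 neutrophil and dendritic cell markers 2 (median -0.83), and of 8 pan-leukocyte genes 7 (median -1.71). The monocyte list was led by *Ly6c2* (-2.61, adjusted p = 0.130 from limma) and *Ms4a7* (-2.21, adjusted p = 0.124).

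Of 8 Mueller glia and astrocyte markers 2 were lower (median -0.53), of 5 endothelial cell and pericyte markers tested 1 was lower (median -1.09), and of 8 RGC markers tested 2 were higher and 0 lower (median 0.14). In none of these lists did a gene pass the adjusted threshold in limma.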
